A study of Homo sapiens with 4 samples.

Results

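The clustered core histone genes encode the H2A, H2B, H3 and H4 proteins that form the nucleosome, and they were examined here in ATAC-seq data, in which a transposase inserts adapters into open DNA, so that the reads over a region measure its accessibility. A region belonged to the group when the gene symbol that the authors' table gives it, that of the nearest transcription start site (TSS), starts with HIST1H2, HIST1H3, HIST1H4, HIST2H, HIST3H or HIST4H. This took 60 of 58127 regions, named for 41 genes, and left out the linker H1 genes. The group was selected on the differences between these same libraries, after low values at histone promoters had been seen. The differences between the libraries are therefore given as a description, and no test over the group is made.

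The cells were MCF10A, a human line of mammary epithelium that is established in culture and forms no tumours. Libraries labelled shG8d carried a knockdown of SNHG8d, a form of the long non-coding RNA of SNHG8, the host gene of a small nucleolar RNA, and libraries labelled shNC carried a control hairpin. Each label has 2 libraries, A and B, and whether A and B were separate cultures is not stated. The p-values therefore reflect the spread among libraries alone, possibly a technical one. Accessibility does not show whether the targeted RNA was reduced, and the number of hairpins or clones is not given in the sources used here. Of 9 marker genes of mammary epithelium, 8 had a region at the promoter, against 0 of 9 marker genes of blood, liver, muscle, neural crest and endothelium.

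By their row identifiers, 33913 regions are common to both labels, 2755 are shG8d-specific and 21459 are shNC-specific. Converted from the log10 scale, the values of a library are whole multiples of 1 step, the worth of 1 read, and the same 4 steps recur in all sets under exchanged labels. Libraries are therefore called by depth. The deeper pair held 8124488 (A) and 8111839 (B) reads in regions, and the shallower pair 4457248 (A) and 4344212 (B). The deeper pair is labelled shG8d in the common set and shNC in both specific sets. Which labels are right was not tested, and the knockdown is given no direction. All differences are log2 differences, deeper minus shallower pair, on the scale of log2(normalized count + 1), so a negative value means less accessible in the deeper pair. A region was called when the limma moderated test, adjusted over all 58127 regions by the Benjamini-Hochberg method, gave a value under 0.05.

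Core histone genes lie in clusters, the largest of them on chromosome 6 (HIST1), with smaller ones on chromosome 1 (HIST2 and HIST3). HIST4H4 lies on chromosome 12. They are transcribed mostly in S phase, when new DNA needs new nucleosomes, inside a nuclear structure called the histone locus body. Their mRNAs end in a stem-loop in place of a poly(A) tail. Many H2A and H2B genes share one divergent promoter. Short promoters with a TATA box, CCAAT boxes and, at H2B genes, an octamer bound by OCT-1 (POU2F1) are typical of the family, and H4 genes carry an element read by HINFP.

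The promoters of 5 members show how the family is built and which of its letters occur at low and at nearly level genes. Each line gives the 250 bases before the RefSeq start (GRCh38.p14), 5′ to 3′ on the strand of the gene, with capitals where 1 of 3 motifs was found on either strand. The motif of TBP was searched as TATAAA. The motif bound by NF-Y was searched by the letters CCAAT, and so also appears reversed. The octamer was searched as ATTTGCAT, reversed as ATGCAAAT. The motifs do not overlap one another, except that TATAAA can overlap its own reverse, as it does once in HIST1H2BJ. HIST1H4B (chr6:26027284-26027533, minus strand), HIST2H2AB (chr1:149887966-149888215, minus strand) and HIST1H2BF (chr6:26199266-26199515, plus strand) were called lower in the deeper pair. HIST1H2BJ (chr6:27132796-27133045, minus strand) and HIST1H2BI (chr6:26272681-26272930, plus strand) were not called.
HIST1H4B: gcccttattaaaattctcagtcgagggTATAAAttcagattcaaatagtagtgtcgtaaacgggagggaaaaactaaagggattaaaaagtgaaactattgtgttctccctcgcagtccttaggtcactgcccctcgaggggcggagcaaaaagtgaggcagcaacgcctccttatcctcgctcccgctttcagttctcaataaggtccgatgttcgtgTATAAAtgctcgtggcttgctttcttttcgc
HIST2H2AB: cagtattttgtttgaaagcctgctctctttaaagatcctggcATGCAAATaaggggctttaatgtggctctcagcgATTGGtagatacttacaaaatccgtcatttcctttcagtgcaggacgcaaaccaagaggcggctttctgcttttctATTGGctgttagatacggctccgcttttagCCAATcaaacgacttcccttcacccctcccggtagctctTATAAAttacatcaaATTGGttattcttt
HIST1H2BF: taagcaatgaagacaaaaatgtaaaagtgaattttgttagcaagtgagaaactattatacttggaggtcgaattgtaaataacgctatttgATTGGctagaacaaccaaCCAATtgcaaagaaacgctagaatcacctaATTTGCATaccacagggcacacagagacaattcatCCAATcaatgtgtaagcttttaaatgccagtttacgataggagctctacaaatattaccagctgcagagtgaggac
HIST1H2BJ: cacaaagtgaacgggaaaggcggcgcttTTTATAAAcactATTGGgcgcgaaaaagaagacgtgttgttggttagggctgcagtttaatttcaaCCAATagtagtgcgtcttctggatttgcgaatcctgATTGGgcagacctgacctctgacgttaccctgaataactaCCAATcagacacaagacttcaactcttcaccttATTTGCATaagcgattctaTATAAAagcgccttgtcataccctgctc
HIST1H2BI: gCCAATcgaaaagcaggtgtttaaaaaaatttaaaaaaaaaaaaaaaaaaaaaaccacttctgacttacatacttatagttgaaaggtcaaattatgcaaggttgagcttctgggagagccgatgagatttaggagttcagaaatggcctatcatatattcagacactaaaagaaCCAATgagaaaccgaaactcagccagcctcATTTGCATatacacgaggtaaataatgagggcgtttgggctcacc

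The octamer stood in HIST1H2BF and HIST2H2AB, both called lower, and also in HIST1H2BJ and HIST1H2BI, which were not called. HIST1H4B held TATAAA and neither of the other motifs in this window. RefSeq promoters were found for 38 of the 41 genes. HIST1H2AH, HIST1H4A and HIST1H4C had none in the table used. TATAAA occurred in 25 of the 38 (65.8%), against 11.1% of all 27305 RefSeq promoters. CCAAT occurred in 30 (78.9%), against 33.0%, and the octamer in 16 (42.1%), against 1.66%. The motifs followed the histone type. CCAAT was found in 9 of 9 H2A, 12 of 12 H2B and 8 of 8 H3 promoters but in 1 of 9 H4 promoters. The octamer was found in 7 of 9 H2A and 9 of 12 H2B promoters, and in 0 of 8 H3 and 0 of 9 H4 promoters. A match is a run of letters anywhere in the window on either strand, and not a measured site of binding. The TATAAA matches of HIST1H2AE and HIST1H2BC, for example, lay on the reverse strand, starting at -206 and -220 from the TSS.

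All 3 motifs were found both at called and at uncalled genes. Genes with a region within 1000 bp of the TSS were pooled over the region sets, each by its region of highest mean. The octamer was found in 6 of 14 promoters of genes called lower and in 9 of 20 of genes not called. HIST1H2BC (shG8d-specific, called lower) and HIST1H2AC (common, not called) have nearly the same promoter window, which thus counts on both sides. The sets differ in their share of calls, so the counts are not compared. CCAAT was found in 10 of 14 called and 16 of 20 not called, and TATAAA in 8 of 14 called and 15 of 20 not called. The median GC content of the 250 bases was 41.4% in core histone promoters and 58% in all RefSeq promoters, and the part of base composition in the differences was not tested.

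Of the 60 regions, 41 were gene-proximal (within 1000 bp of the TSS) and 19 distal, whereas 22.4% of all regions were gene-proximal. The table annotates 35 as promoter, 17 as intergenic, 6 as transcription end sites and 1 each as intron and exon. By histone type, 20 were named for H4, 18 for H2B, 11 for H3 and 11 for H2A genes. By place, 45 lay on chromosome 6, 13 on chromosome 1 and 2 on chromosome 12. The common set held 45, the shG8d-specific set 3 and the shNC-specific set 12. All 60 passed the filter on low values (10 normalized counts in at least 2 libraries), which removed no region of the table. Between 12 and 285 reads lay in a member region in any 1 library.

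The 31 gene-proximal regions of the common set, at 29 genes, were less accessible in the deeper pair in every case by the sign of the difference. Their median log2 difference was -0.53 and ranged from -1.07 to -0.09, against a median of 0.02 over all 8817 gene-proximal common regions. In 26 of the 31, both deeper libraries lay below both shallower ones, as they did in 32% of all such regions, and in 0 of 31 they lay above, against 36.3%. The call was lower for 15 of 31 and higher for 0, against 12.4% and 17.4% of all gene-proximal common regions. These are the differences on which the group was selected, so the counts are read no further. The members' median log2 value minus that of all gene-proximal common regions was -0.35 (A) and -0.18 (B) in the deeper libraries, against 0.37 (A) and 0.34 (B) in the shallower libraries. Without deeper library A the members' median was -0.43, against 0.07 over all gene-proximal common regions. Without deeper library B it was -0.63, against -0.0034. All 31 differences stayed below 0 in both fits. Fewer regions were called lower in these fits, among the members and among all gene-proximal common regions. Without deeper library A the members' share called lower was no higher than that of all gene-proximal common regions. Without deeper library B it was above that share. With all libraries scaled to equal totals 27 of the 31 were called lower, against 31.5% of all gene-proximal common regions. The median of all 58127 regions itself moved to -0.36, against -0.02 on the deposited scale. Relative to all gene-proximal common regions, the members' median was -0.55 on both scales.

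**Figure D1:**
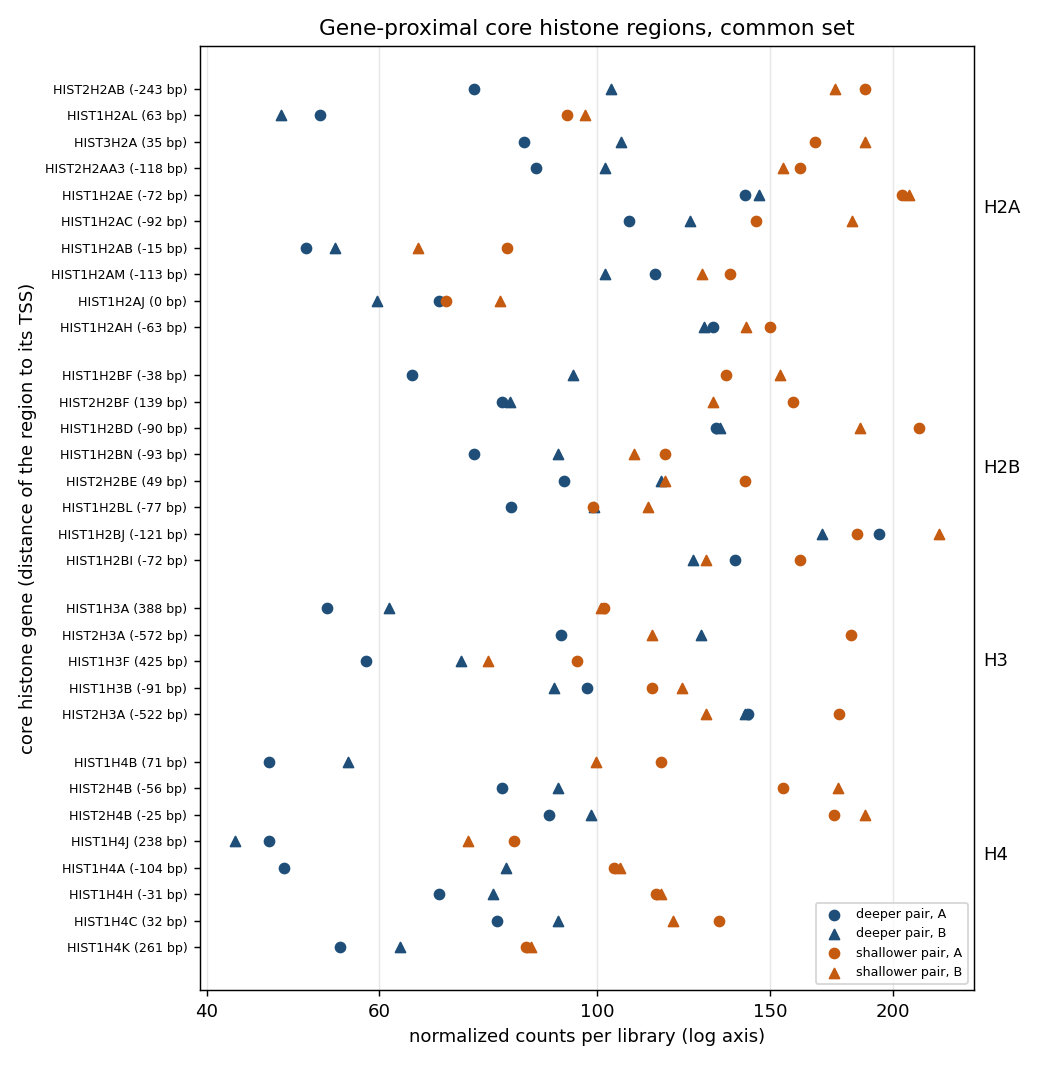
Normalized counts (log axis) of the 31 gene-proximal core histone regions of the common set in each of the 4 libraries, grouped by histone type and ordered within a type by the log2 difference, lowest first. Blue marks are the deeper and orange marks the shallower libraries. The blue marks lie left of the orange ones in 26 of 31 regions and overlap with them in 5.

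The H4 genes, whose product pairs with H3 in the core of the nucleosome, had the lowest median difference of the histone types. All 8 of their gene-proximal common regions had both deeper libraries below both shallower ones, and 6 were called lower, with a median log2 difference of -0.77. The shares over all gene-proximal common regions were 32% and 12.4%. HIST1H4B, 71 bp from its TSS, had 46.3 (A) and 55.7 (B) normalized counts in the deeper pair, against 116 (A) and 99.6 (B) in the shallower pair. The pairs did not overlap, and the shallower mean was 2.11 times the deeper mean (log2 difference -1.07, SE 0.24, adjusted p = 0.0042). These values rest on 55 and 69 reads in the deeper pair, against 96 and 85 reads in the shallower pair.

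HIST2H4B had 2 called regions, at -25 and -56 bp. The nearer one had 89.2 (A) and 98.5 (B) normalized counts in the deeper pair, against 174 (A) and 187 (B) in the shallower pair (log2 difference -0.94, SE 0.19, adjusted p = 0.0025). The other had 79.9 (A) and 91.2 (B) in the deeper pair, against 155 (A) and 176 (B) in the shallower pair (log2 difference -0.94, SE 0.20, adjusted p = 0.0032). HIST2H4B has a near-identical copy, HIST2H4A, and reads of the copies may have been split or shared, so which gene these regions measure is uncertain.

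Among the H2A genes, 5 of 10 gene-proximal common regions were called lower, against 12.4% of all such regions, and the median was -0.50. All 10 had both deeper libraries below both shallower ones, against 32% of all gene-proximal common regions. HIST2H2AB, -243 bp from its TSS, had 74.9 (A) and 103 (B) normalized counts in the deeper pair, against 187 (A) and 175 (B) in the shallower pair (log2 difference -1.03, SE 0.21, adjusted p = 0.0021). Both shallower libraries were above both deeper ones. HIST1H2AL had 52.2 (A) and 47.6 (B) in the deeper pair, against 93.0 (A) and 97.2 (B) in the shallower pair (log2 difference -0.92, SE 0.24, adjusted p = 0.011). HIST3H2A, the only HIST3 member, had 84.2 (A) and 106 (B) in the deeper pair, against 167 (A) and 187 (B) in the shallower pair (log2 difference -0.90, SE 0.20, adjusted p = 0.0041). HIST1H2AE, one of the 3 regions of highest signal, was called with a smaller difference of -0.51 (SE 0.18, adjusted p = 0.043). It had 141 (A) and 146 (B) in the deeper pair, against 204 (A) and 207 (B) in the shallower pair, with little spread within either.

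The H2B genes had 3 of 8 regions called lower, against 12.4% of all gene-proximal common regions, and a median of -0.38. In 5 of 8 both deeper libraries lay below both shallower ones, against 32% of all gene-proximal common regions. HIST1H2BF had 64.8 (A) and 94.4 (B) normalized counts in the deeper pair, against 135 (A) and 153 (B) in the shallower pair (log2 difference -0.87, SE 0.22, adjusted p = 0.0093). HIST2H2BF had 79.9 (A) and 81.5 (B) in the deeper pair, against 158 (A) and 131 (B) in the shallower pair (log2 difference -0.83, SE 0.21, adjusted p = 0.0083). HIST1H2BD had 132 (A) and 133 (B) in the deeper pair, against 213 (A) and 185 (B) in the shallower pair (log2 difference -0.58, SE 0.18, adjusted p = 0.029). In all of these the pairs stood apart.

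The pairs overlapped at 3 of the 5 H2B regions that were not called, those of HIST1H2BJ, HIST1H2BI and HIST1H2BL. HIST1H2BJ, the region of highest mean signal in the group, had 194 (A) and 169 (B) normalized counts in the deeper pair, against 184 (A) and 223 (B) in the shallower pair (log2 difference -0.16, SE 0.18, adjusted p = 0.56). HIST1H2BI had 138 (A) and 125 (B) in the deeper pair, against 161 (A) and 129 (B) in the shallower pair (log2 difference -0.13, SE 0.20, adjusted p = 0.67).

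The H3 genes had 1 of 5 regions called lower, against 12.4% of all gene-proximal common regions, and a median of -0.40. The called region, HIST1H3A, named after its values were seen, had 53.0 (A) and 61.3 (B) normalized counts in the deeper pair, against 101 (A) and 101 (B) in the shallower pair (log2 difference -0.82, SE 0.23, adjusted p = 0.017). The value nearest to 0 among the 31 was that of HIST2H3A at -522 bp, with 142 (A) and 141 (B) in the deeper pair, against 176 (A) and 129 (B) in the shallower pair (log2 difference -0.09, SE 0.20, adjusted p = 0.78). HIST2H3A, like HIST2H2AA3 and HIST2H4B, has near-identical copies. Without the regions of these 3 genes, 12 of 26 were called lower with a median of -0.52. Whether the histone types differ from one another was not tested.

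The 16 regions that were not called had log2 differences from -0.56 to -0.09, overlapping with those of the called regions, the smallest of which was -0.51. Standard errors ran from 0.18 to 0.26 over the 31 regions. By cluster, 9 of 22 HIST1 regions (median -0.50), 5 of 8 HIST2 regions (median -0.78) and the HIST3 region were called lower. Core histone genes on chromosome 6 form 3 blocks when they are parted at gaps of over 200 kb. The first block had 7 of 13 regions called lower (median -0.56), the second 0 of 2 (median -0.16) and the third 2 of 7 (median -0.45).

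A histone H2A and an H2B gene whose starts lie within 500 bp of each other, 194 to 248 bp apart in the RefSeq table, share a promoter. Of the gene-proximal common H2A and H2B regions whose gene has a RefSeq promoter, 10 had such a partner, with 3 called lower and a median of -0.38. The other 7 had no partner, with 5 called lower and a median of -0.74. Both groups held called and uncalled regions, and the difference between them was not tested. HIST1H2BF, partnered with HIST1H2AD, and HIST3H2A, partnered with HIST3H2BB, were among those called.

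Distal regions of the common set, 14 at 6 genes, did not show the same uniform sign. The log2 difference was below 0 in 11 of 14, with a median of -0.26, against a median of -0.17 over all 25096 distal common regions. The pairs stood apart with the deeper one lower in 6 and higher in 3 of the 14, against 42.8% and 23.9% of all distal common regions. The call was lower for 2 and higher for 0, against 15.9% and 8.35%, a share close to the background. Without deeper library A, and also without deeper library B, 0 of 14 were called, and without shallower library B 7 of 14 were below 0. The gene symbol of a distal region says only which TSS is nearest.

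**Figure D2:**
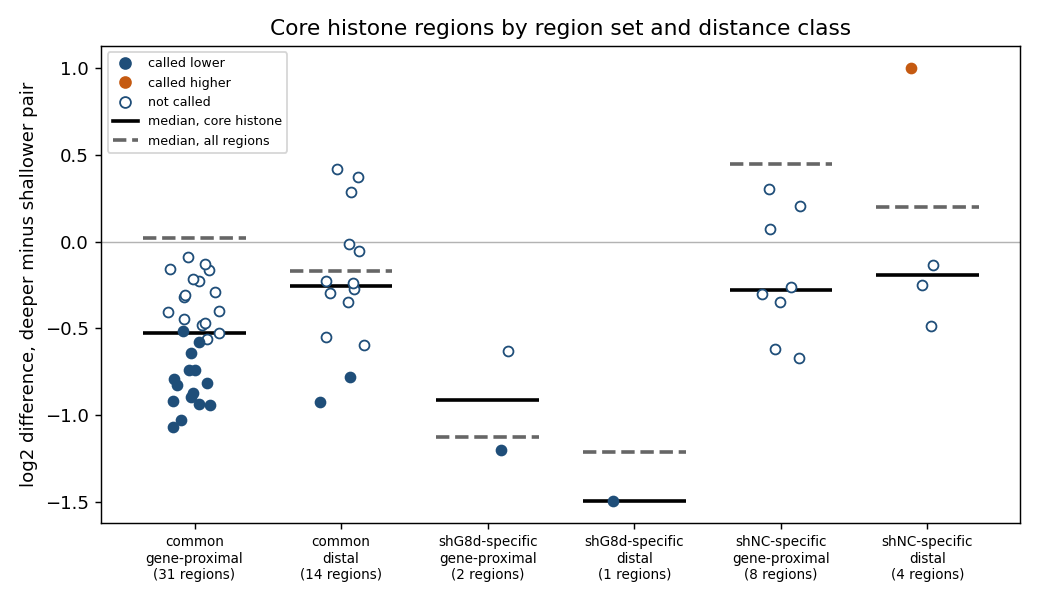
Log2 difference (deeper minus shallower pair) of each of the 60 core histone regions, by region set and distance class. Filled circles are called regions and open circles uncalled ones, black lines are the members' medians and dashed grey lines the medians of all regions of the same set and class. The 31 gene-proximal common regions all lie below 0, around a median of -0.53, and the 14 distal ones lie on both sides of 0.

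The called distal regions were near HIST2H3PS2, whose RefSeq symbol is H3-7, and HIST1H4H. The region 1211 bp from the HIST2H3PS2 TSS had 39.6 (A) and 26.6 (B) normalized counts in the deeper pair, against 72.5 (A) and 53.9 (B) in the shallower pair (log2 difference -0.92, SE 0.31, adjusted p = 0.036). The region -27460 bp from HIST1H4H had 64.0 (A) and 53.3 (B) in the deeper pair, against 93.0 (A) and 110 (B) in the shallower pair (log2 difference -0.78, SE 0.24, adjusted p = 0.022). In both, each deeper library lay below each shallower one. The largest opposite value was at HIST1H4F, 2909 bp, with 31.1 (A) and 51.6 (B) in the deeper pair, against 30.2 (A) and 29.3 (B) in the shallower pair (log2 difference 0.42, SE 0.34, adjusted p = 0.40). The distal region of highest signal, -39274 bp from HIST2H3PS2, was not called either, with 202 (A) and 230 (B) in the deeper pair, against 144 (A) and 192 (B) in the shallower pair (log2 difference 0.37, SE 0.19, adjusted p = 0.16). Next by signal came a region -10777 bp from HIST1H4H, at -0.05 (SE 0.21, adjusted p = 0.88), and one -11713 bp from HIST1H2BE, at -0.23 (SE 0.23, adjusted p = 0.51).

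Gene-proximal and distal members were compared within each library of the common set. The proximal median was above the distal median by 0.32 (A) and 0.56 (B) log2 units in the deeper libraries, against 0.83 (A) and 0.43 (B) in the shallower ones. These ranges overlapped, so the step between the classes did not separate the pairs. Over all common regions the same step was 0.55 (A) and 0.64 (B) in the deeper libraries, against 0.48 (A) and 0.31 (B) in the shallower ones. With this subtracted, the members' step was -0.24 (A) and -0.08 (B) in the deeper libraries, against 0.34 (A) and 0.12 (B) in the shallower ones, which did not overlap. No test is given, since the members were selected on this contrast.

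**Figure D3:**
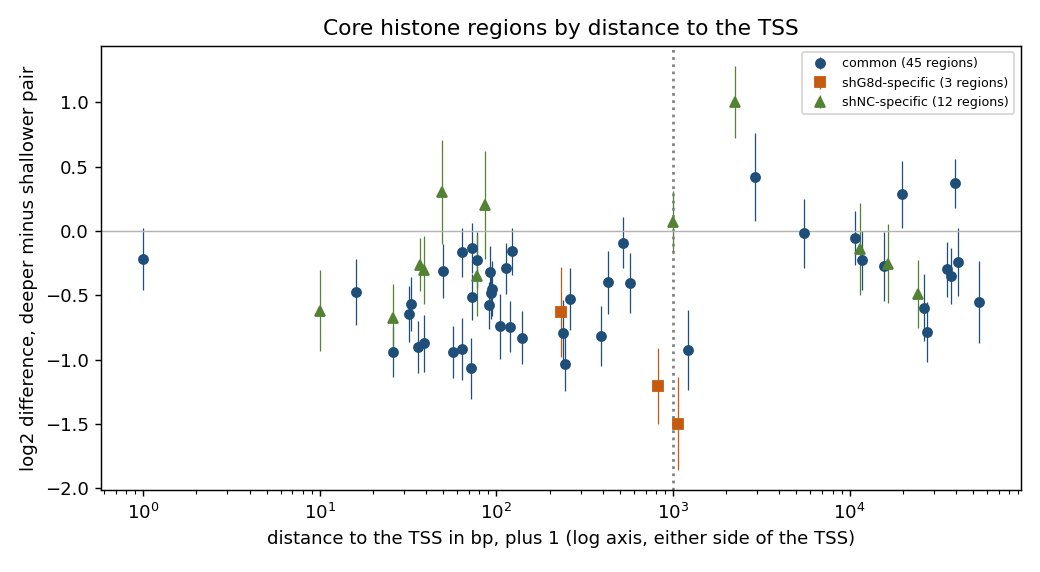
Log2 difference (deeper minus shallower pair) with its standard error against the distance to the TSS (bp plus 1, log axis) for all 60 regions, with a colour and marker for each set and a dotted line at 1000 bp. Within that line the common regions run from -1.07 to -0.09. Beyond it they run from -0.92 to 0.42.

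Both distance classes were present at 4 genes. At HIST1H4H the region at -31 bp was called lower, with 69.0 (A) and 78.3 (B) normalized counts in the deeper pair, against 115 (A) and 116 (B) in the shallower pair (log2 difference -0.64, SE 0.22, adjusted p = 0.037). Of its distal common regions, that at -27460 bp was called, and those at -10777, -19852, -26300 and -37375 bp had log2 differences of -0.05, 0.29, -0.59 and -0.35 and were not. At HIST1H2BJ the promoter region stood at -0.16 and the regions at 5488, 35613, 40851 and 53815 bp at -0.02, -0.30, -0.24 and -0.55, none of them called. At HIST1H2BL the promoter region stood at -0.23, with 81.6 (A) and 99.3 (B) normalized counts in the deeper pair, against 99.1 (A) and 112 (B) in the shallower pair. Its distal regions at 15610 bp (common) and 16452 bp (shNC-specific) stood at -0.27 and -0.25, close to the promoter value, and none of the 3 was called. At HIST2H3PS2 the region at 85 bp, in the shNC-specific set, stood at 0.20 (SE 0.42). The region at 1211 bp, in the common set, stood at -0.92, so the classes are not compared within a set here. Nearest to the 1000 bp boundary on the inner side was HIST4H4 at 994 bp, in the shNC-specific set, with a log2 difference of 0.07. On the outer side it was HIST1H3E at -1070 bp, in the shG8d-specific set, with -1.50. All gene-proximal shNC-specific regions had a median of 0.45 and all distal shG8d-specific ones -1.21, so these values do not compare distances. How the authors chose the specific sets is not stated.

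In the shG8d-specific set, where the deeper pair carries the shNC label, all 3 members had both deeper libraries below both shallower ones. The call was lower for 2, in a set in which 69.6% of gene-proximal and 70.1% of distal regions were called lower, so a low value there is the rule. HIST1H3E at -1070 bp had 14.3 (A) and 17.8 (B) normalized counts in the deeper pair, against 51.9 (A) and 42.2 (B) in the shallower pair (log2 difference -1.50, SE 0.36, adjusted p = 0.0064). HIST1H2BC at 825 bp had 32.8 (A) and 28.2 (B) in the deeper pair, against 60.4 (A) and 84.4 (B) in the shallower pair (log2 difference -1.20, SE 0.30, adjusted p = 0.0074). HIST1H2BB at -230 bp had 20.2 (A) and 34.7 (B) in the deeper pair, against 39.9 (A) and 43.4 (B) in the shallower pair (log2 difference -0.63, SE 0.35, adjusted p = 0.20).

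In the shNC-specific set most regions lean the other way, with a median of 0.45 over 3683 gene-proximal regions. The 8 gene-proximal members had a median of -0.28, and 5 of them were below 0. Both deeper libraries lay below both shallower ones in 3 of 8, against 8.77% of all gene-proximal regions of the set. By limma 0 were called lower and 0 higher, against 1.11% and 26.7%. HIST4H4 at 25 bp had the lowest value, with 63.1 (A) and 47.6 (B) normalized counts in the deeper pair, against 105 (A) and 73.8 (B) in the shallower pair (log2 difference -0.67, SE 0.26, unadjusted p = 0.018, adjusted p = 0.067). It was the only 1 of the 8 with an unadjusted p under 0.05, and it was called when the letters A and B were added as a replicate block with an adjusted p of 0.044. HIST2H2AA3 at -36 bp, the highest in signal, had 94.3 (A) and 96.8 (B) in the deeper pair, against 120 (A) and 110 (B) in the shallower pair (log2 difference -0.26, SE 0.21, adjusted p = 0.38). HIST1H4D had the largest opposite value, 0.30 (SE 0.41, adjusted p = 0.62), with 34.5 (A) and 32.3 (B) in the deeper pair, against 43.5 (A) and 16.4 (B) in the shallower pair, on both sides of the deeper values.

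Among the 4 distal members of the shNC-specific set, 1 was called higher and 0 lower, against 10.4% and 0.951% of all distal regions of the set. It was the region 2254 bp from HIST1H3G, with 77.4 (A) and 72.6 (B) normalized counts in the deeper pair, against 31.4 (A) and 43.4 (B) in the shallower pair (log2 difference 1.003, SE 0.28, adjusted p = 0.015). Without either deeper library, or with equal library totals, it was not called. The other 3 stood at -0.49 (HIST1H4H, -24381 bp), -0.25 (HIST1H2BL, 16452 bp) and -0.14 (HIST1H4H, -11505 bp), with adjusted p of 0.18, 0.59 and 0.81.

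Low values around the chromosome 6 cluster were not limited to the histone genes. Between its outermost core histone genes in RefSeq order, the common set had 17 gene-proximal regions of other genes. Of these 14 were below 0, 7 were called lower and 0 higher, against 12.4% and 17.4% of all gene-proximal common regions, with a median of -0.44. The 35 distal regions of other genes had 30 below 0, 17 called lower and 0 higher, against 15.9% and 8.35% of all distal common regions, with a median of -0.66. With equal library totals 10 of the 17 and 25 of the 35 were called lower, with medians of -0.79 and -1.01. On that scale 31.5% of all gene-proximal common regions were called lower, and their median was -0.33. The share of all distal common regions on that scale is not given here. Without deeper library A the medians were -0.71 (gene-proximal) and -0.66 (distal), and without deeper library B -0.46 and -0.62. All gene-proximal common regions had medians of 0.07 and -0.0034 in these fits. Fewer regions were called lower in them, among these other genes and among all gene-proximal common regions. The core histone genes on the same chromosome had a median of -0.50 over 22 gene-proximal regions. Over all genes of chromosome 6 other than core histone genes, these neighbours included, 478 gene-proximal common regions had a median of -0.06 and 1480 distal ones a median of -0.22.

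Several of those other genes had larger differences than any core histone region of the common set. The butyrophilin genes, members of the immunoglobulin superfamily that lie between the histone blocks, had 3 of 5 gene-proximal common regions called lower. BTN3A1 had 38.7 (A) and 39.5 (B) normalized counts in the deeper pair, against 97.9 (A) and 118 (B) in the shallower pair (log2 difference -1.44, SE 0.25, adjusted p = 0.00072). BTN3A2 stood at -1.39 and BTN2A1 at -0.99, both called, while BTN2A2 stood at 0.30 and was not. Distal common regions at -23392 and -13494 bp from BTN3A2 went the other way, at 0.70 and 0.39, and were not called. The calls of BTN3A1, BTN3A2 and BTN2A1 held with each library left out and with equal library totals. A region -32770 bp from PRSS16 had 32.0 (A) and 29.1 (B) in the deeper pair, against 73.7 (A) and 118 (B) in the shallower pair (log2 difference -1.58, SE 0.29, adjusted p = 0.0010). Linker histone HIST1H1D, the only linker gene with a common gene-proximal region there, was called lower at -1.07 (SE 0.31, adjusted p = 0.018). Without linker genes the others had 6 of 16 gene-proximal regions called lower, with a median of -0.39, and 16 of 33 distal regions, with a median of -0.78.

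The stretches on each side of the cluster, out to the 50th protein-coding gene and with the non-coding genes and pseudogenes in them, were added after these values were seen. On the side with the lower coordinates, 26 gene-proximal regions had a median of -0.11, with 4 called lower and 5 higher, and 119 distal regions had a median of -0.27, with 21 lower and 9 higher. On the other side, 22 gene-proximal regions had a median of -0.19, with 1 lower and 0 higher, and 35 distal regions had a median of -0.35, with 7 lower and 1 higher. Whether the span differs from its flanks was not tested, and genes that share a stretch of chromosome are not independent.

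**Figure D4:**
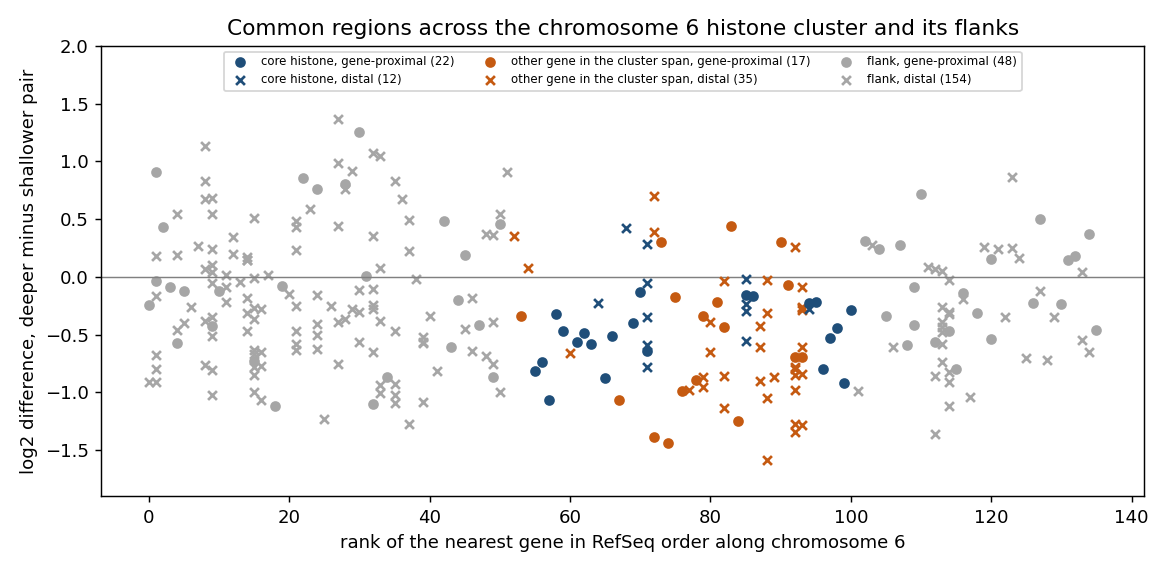
Log2 difference (deeper minus shallower pair) of common regions against the rank of the nearest gene in RefSeq order across the chromosome 6 histone cluster and, on each side, the stretch out to the 50th protein-coding gene. Circles are gene-proximal and crosses distal regions, blue for core histone genes, orange for other genes in the span and grey for the flanks. The histone promoters and their neighbours lie mostly below 0 (medians -0.50 and -0.44), and the flanks lie on both sides of it (medians -0.11 and -0.19 for gene-proximal regions).

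Genes linked to the histone locus body, to histone gene transcription or to histone mRNA were set beside the histone genes, with 1 promoter region per gene. Of 11488 genes with such a region, 10.7% were called lower and 20.3% higher. The clustered core histone genes, pooled over the sets in the same way, had 15 of 37 called lower and 0 higher, by the differences they were selected on. The list of histone locus body and histone mRNA processing genes had regions for 19 of 23, of which 1 was called lower and 5 higher, with a median of 0.11, against 0.14 over all 11488. With equal library totals the list had 5 called lower and 2 higher (HINFP and CCNE1) and a median of -0.24, so its sign depends on the scale. With those totals 31.5% of all gene-proximal common regions were called lower. HINFP, which activates H4 genes, had 216 (A) and 230 (B) normalized counts in the deeper pair, against 120 (A) and 102 (B) in the shallower pair (log2 difference 1.01, SE 0.19, adjusted p = 0.0012). CCNE1 (cyclin E1, whose kinase acts on the histone locus body) had 119 (A) and 135 (B) in the deeper pair, against 65.2 (A) and 59.8 (B) in the shallower pair (log2 difference 1.01, SE 0.22, adjusted p = 0.0036). In both genes the deeper libraries were the higher ones, without overlap. HINFP was called higher with each library left out, and CCNE1 in all of these fits but that without deeper library B.

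SLBP, which binds the stem-loop of histone mRNA, had 192 (A) and 194 (B) normalized counts in the deeper pair, against 123 (A) and 108 (B) in the shallower pair (log2 difference 0.74, SE 0.19, adjusted p = 0.0087). ERI1, a nuclease that trims histone mRNA ends, stood at 0.72 (adjusted p = 0.049) and SYMPK, a scaffold of the cleavage complex, at 0.61 (adjusted p = 0.040). The gene called lower was CSTF2T, a cleavage stimulation factor gene, at -1.83 (SE 0.31, adjusted p = 0.00053), in the shG8d-specific set. POU2F1, which encodes the octamer-binding factor OCT-1, stood at 0.34 (SE 0.23, adjusted p = 0.30) and was not called. SLBP was not called without deeper library A, without deeper library B or with equal library totals, and ERI1 and SYMPK were not called in any of these fits or without shallower library B. CSTF2T was called lower in all of them.

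Histone chaperones, which carry histones to and from DNA, had regions for 18 of 22 genes, with 2 called lower, 2 higher and a median of -0.16. Over all 11488 genes with a promoter region 10.7% were called lower and 20.3% higher, so the share called lower was near the background. With equal library totals 7 were called lower and 2 higher, with a median of -0.51. On that scale 31.5% of all gene-proximal common regions were called lower. The median of the list was -0.01 without deeper library A and 0.06 without shallower library A. Called lower were both subunits of FACT, a chaperone that moves with polymerases. SSRP1 had 34.5 (A) and 44.4 (B) normalized counts in the deeper pair, against 89.4 (A) and 64.4 (B) in the shallower pair (log2 difference -0.94, SE 0.28, adjusted p = 0.021), and SUPT16H stood at -0.60 (SE 0.18, adjusted p = 0.025). Called higher were CHAF1A, the large subunit of the replication-coupled CAF-1 complex, and CABIN1, a partner of HIRA. CHAF1A had 139 (A) and 113 (B) in the deeper pair, against 67.7 (A) and 37.5 (B) in the shallower pair (log2 difference 1.30, SE 0.27, adjusted p = 0.0024), and CABIN1 stood at 1.14 (SE 0.22, adjusted p = 0.0014). The calls of CHAF1A and CABIN1 held with each library left out and with equal library totals. Without deeper library A neither FACT gene was called, without deeper library B SUPT16H was not, without shallower library A SSRP1 was not, and without shallower library B SUPT16H was not.

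Core histone genes whose symbols carry no HIST prefix mostly encode variants made throughout the cell cycle. They were listed by symbol, and how near they lie to the members was not examined. Regions were found for 7 of 13 genes, with a median of 0.26. The median was -0.09 with equal library totals and 0.46 without shallower library A. It was 0.45 without deeper library B, 0.41 without deeper library A and 0.0036 without shallower library B. The call was lower for 1, H2AFJ, and higher for 1, H2AFY, against 10.7% and 20.3% of all 11488 genes with a promoter region. H2AFJ had 86.7 (A) and 74.2 (B) normalized counts in the deeper pair, against 161 (A) and 163 (B) in the shallower pair (log2 difference -1.003, SE 0.20, adjusted p = 0.0022). H2AFY, which encodes macroH2A1, had 69.8 (A) and 65.4 (B) in the deeper pair, against 42.3 (A) and 35.1 (B) in the shallower pair in the shNC-specific set (log2 difference 0.79, SE 0.28, adjusted p = 0.043). The H3.3 genes H3F3A and H3F3B stood at 0.20 and 0.20, with overlapping pairs, and were not called. CENPA, the centromeric H3, stood at 0.47 with an adjusted p of 0.072. The call of H2AFJ held with each library left out and with equal library totals, and that of H2AFY was lost with equal library totals and when any library but shallower library A was left out. Without shallower library A CENPA, H2AFV and H2AFX were also called higher. The share of all genes called higher in that fit is not given here.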

How the data were processed

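ATAC-seq libraries of MCF10A cells were read from 1 table of 58127 regions. CASAVA 1.4 (base calls) and the build hg19 are named per the submitters' processing notes, and the software for alignment, peaks, counting and testing is not given in the sources used. Per the file headers, the authors deposited a log10 normalized value per region and sample, a log2 fold change, an unadjusted p-value, a distance to the TSS, an annotation and a gene symbol. Region starts and ends were not used, so signal is that of a whole region and is not set per length. The deposited log2 fold change and p-value served only to check columns and signs.

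Raising 10 to each value gave whole multiples of a step (0.842 and 0.807 normalized counts per read in the deeper, 1.21 and 1.17 in the shallower libraries, A and B), within 0.05 reads. A count of 3 reads is 2.42 to 3.62 normalized counts, which covers counting error only. The step sizes recur in all sets, and libraries were matched by them.

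The test was limma 3.58.1 under R 4.3.3, with the trend option, on values of log2(normalized count + 1), a scale that understates the change of low regions, over all regions with 10 normalized counts in at least 2 libraries. It was also run on simulated reads with a spread fixed beforehand and not taken from these libraries. That run does not measure the error rates of the test in these data. The design had also foreseen read counts. The deposited unit is log10, so the test for normalized values was used. The letters A and B did not pair the samples (r = -0.0039 between the A minus B differences of the pairs, over regions).

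The members and lists were chosen with earlier results of these data known. Named for each set and distance class were up to 8 called members with the largest difference, the 3 of highest mean, the largest opposite one, those nearest to 1000 bp and genes with both classes. Gene order and promoter sequences are from RefSeq (GRCh38.p14). Genes were matched by the RefSeq identifier of the nearest promoter, or else by symbol or an unambiguous synonym. No coordinates were converted. Motif letters were searched on both strands. Alternatives were equal library totals, a pseudocount of 5, a filter of 20 or none, the letters as a replicate block, boundaries of 2500 and 5000 bp, distal regions within 50 kb only, and each library left out.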

Additional observations from a re-analysis of the deposited data

How the results depend on the processing

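Of all gene-proximal common regions, 12.4% were called lower on the deposited scale and 31.5% with equal library totals. On the deposited scale 17 core histone regions of the common set were called lower. With equal library totals the count was 33, and leaving out each library in turn it ran from 1 (without deeper library A) to 18, with 8 without deeper library B. The common count called higher was 0, and 0 to 1 with a library left out. In the shG8d-specific set 2 were called lower, and 1 to 2 with a library left out. In the shNC-specific set 0 were called lower, against 4 with equal library totals, 1 with the letters as a replicate block (HIST4H4 at 25 bp, adjusted p = 0.044) and 0 to 1 with a library left out. The count called higher there was 1, against 0 with equal library totals and 0 to 1 with a library left out. The median log2 difference of gene-proximal common members was -0.53 and -0.88 with equal library totals. Over the fits that each left out 1 library it ran from -0.64 to -0.43, and the number below 0 was 31 except without shallower library A, where it was 29. The distal median was -0.26, against -0.61 with equal library totals and from -0.42 to -0.026 with a library left out. The block changed no other call of a member. A pseudocount of 5, a filter of 20 and no filter changed none of these counts of calls. These, the boundaries of 2500 and 5000 bp and distal regions within 50 kb, which were run for the medians only, moved neither median by more than the spread between libraries. No value changed sign while called. The cause of these changes was not tested. The alternatives that need read counts, edgeR and DESeq2, were not run because the deposited unit is log10. With 2 libraries in each pair, and 12 to 285 reads in a region, small differences were not detectable at this depth.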
